A study of Mus musculus with 4 samples.

Results

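A set of 45 genes of mitosis were followed in late embryonic mouse cortex, from the cyclins that drive entry into M phase to the kinetochore, the spindle, the cleavage furrow and the condensed chromosome. They were picked by name, as platform gene symbols, with earlier results of these arrays known. A gene was measured by the array feature that carried its symbol alone, and by the feature with the highest mean over the 4 arrays where several did. In all 44 of the 45 genes were found among the 19938 genes with a symbol, Ccnb1 being the one not matched to a feature. The filter on dim genes, a mean over the 4 arrays of at least 6.16 on the log2 scale, left 13956 genes to be tested and kept the 44, although Depdc1a and Hmmr passed it through the controls alone.

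RNA came from dorsal cortex at E18.5 (late gestation) and was hybridised to 4 single-colour whole-transcript arrays, 2 for each genotype. Controls were Mek1fl/wt, Mek2-/-. Mutants were Mek1fl/fl, Mek2-/-, NestinCre, in which Cre is driven by a Nestin transgene in neural progenitors and passed on to their progeny. Both groups therefore lacked Mek2, although the series design calls the controls wild type, and the Cre transgene is named for mutants alone, so its own effect and the loss of Mek1 cannot be told apart. Mek1 and Mek2 (Map2k1 and Map2k2) are the kinases that activate ERK1 and ERK2. Values are log2 expression after RMA, a background correction, quantile normalization and summary of probes made by the authors; differences are mutant minus control on that scale.

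Cells prepare for division by switching on a large set of genes late in the cycle. Cyclin A and cyclin B with CDK1 start mitosis, condensin and topoisomerase II shape the chromosomes, and kinetochores attach them to a spindle built by motors and the kinase Aurora A. The checkpoint holds anaphase back until attachment is complete, the anaphase-promoting complex then destroys securin and cyclin B, and the central spindle directs cytokinesis. In the cortex such transcripts mark cycling radial glia, intermediate progenitors and glial precursors, while neurons lack them. Many of their promoters carry a CHR element (cell cycle genes homology region), bound by the MuvB complex with its partners B-MYB and FOXM1 or with the retinoblastoma relatives, and CCAAT boxes, bound by NF-Y.

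The promoter stretches of 6 of the genes are shown because the CHR and CCAAT letters recur in genes of different mitotic roles, whether the gene fell (Depdc1a, Top2a, Mki67) or was not called (Cdk1, Ube2c, Ncapd2). Each line holds the 150 bases before the start of the gene, 5′ to 3′ on the strand of the gene, from the RefSeq promoter table (build GRCm38.p6). The stretches are chr3:159495283-159495432 (plus strand), chr10:69352913-69353062 (minus strand), chr2:164769779-164769928 (plus strand), chr11:99024190-99024339 (minus strand), chr7:135716380-135716529 (minus strand) and chr6:125191587-125191736 (minus strand). Capitals mark a CHR (TTTGAA, or TTCAAA on the other strand), the CHR variant TTCGAA, and a CCAAT box (CCAAT, or ATTGG on the other strand).
Depdc1a: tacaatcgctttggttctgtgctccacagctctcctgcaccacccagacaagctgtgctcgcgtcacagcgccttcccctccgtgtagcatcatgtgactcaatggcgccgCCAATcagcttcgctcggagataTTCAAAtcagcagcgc
Cdk1: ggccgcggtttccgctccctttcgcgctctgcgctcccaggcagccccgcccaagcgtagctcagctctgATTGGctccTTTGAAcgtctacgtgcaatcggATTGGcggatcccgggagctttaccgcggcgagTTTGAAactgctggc
Ube2c: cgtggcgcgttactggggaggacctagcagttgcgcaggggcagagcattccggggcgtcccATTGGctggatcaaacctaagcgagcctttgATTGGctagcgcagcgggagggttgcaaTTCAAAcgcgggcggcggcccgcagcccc
Top2a: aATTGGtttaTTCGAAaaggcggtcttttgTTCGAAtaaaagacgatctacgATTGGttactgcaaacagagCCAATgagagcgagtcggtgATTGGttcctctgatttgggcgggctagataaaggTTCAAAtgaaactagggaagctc
Mki67: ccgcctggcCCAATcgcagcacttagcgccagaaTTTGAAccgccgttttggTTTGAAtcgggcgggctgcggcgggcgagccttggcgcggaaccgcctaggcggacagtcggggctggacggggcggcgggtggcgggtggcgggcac
Ncapd2: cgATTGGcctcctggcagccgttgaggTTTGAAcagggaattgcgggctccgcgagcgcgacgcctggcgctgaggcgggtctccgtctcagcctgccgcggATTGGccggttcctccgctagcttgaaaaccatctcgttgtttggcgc

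A promoter window of 300 bases, from 250 before to 50 after the start, was in the table for 35 of the 44 genes; Aurkb, Ccna2, Foxm1, Incenp, Kif20a, Pbk, Smc4, Spc24 and Tpx2 had none. TTTGAA was found on either strand in 31 of 37 member promoters (83.8%), against 17.9% of all 32851 promoters and 11.7% of the promoters of genes tested. The variant TTCGAA was in 3 of the 37 (8.11%, against 1.56% of all promoters), and CCAAT in 30 of 37 (81.1%, against 37.4%). In 1 member promoter a CCAAT box overlapped a CHR. A CHR of either form and a CCAAT box were both present in 78.4% of member promoters and in 7.53% of all promoters. These are counts of letters in a window, and no binding was measured.

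Where they had a CHR, 28 of 30 member genes carried it within 50 bases of the start. For the match nearest the start, 11 of the 30 had it before the start and 19 after it. The share within 50 bases in other promoters was not counted. The exceptions, Mki67 and Ncapd2 (nearest match at -98 and -123), are among the stretches shown. Those stretches end at the start, so matches after it are not in them. In 27 genes a CCAAT box began 5′ of a CHR, and the smallest such distance had a median of 28 bases. It was 43 bases in the 375 tested genes with both in that order, which include the 27. A smallest distance tends to be shorter where a gene has more boxes. At least 2 CCAAT boxes were in 51.4% of member genes and in 15.7% of genes tested. The medians are therefore not like for like, and this distance was chosen after the matches had been seen. Birc5, Cenpe, Melk, Nuf2 and Nusap1 held no CHR of either form in the window. A CHR of either form was in 16 of 19 genes that were called lower (84.2%) and in 14 of 16 that were not called (87.5%). For comparison, the same letters were in 6 of 31 S phase and replication genes (19.4%), in 3 of 15 genes on a list of the anaphase-promoting complex core, and in 15.9% of the genes tested.

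**Figure D1:**
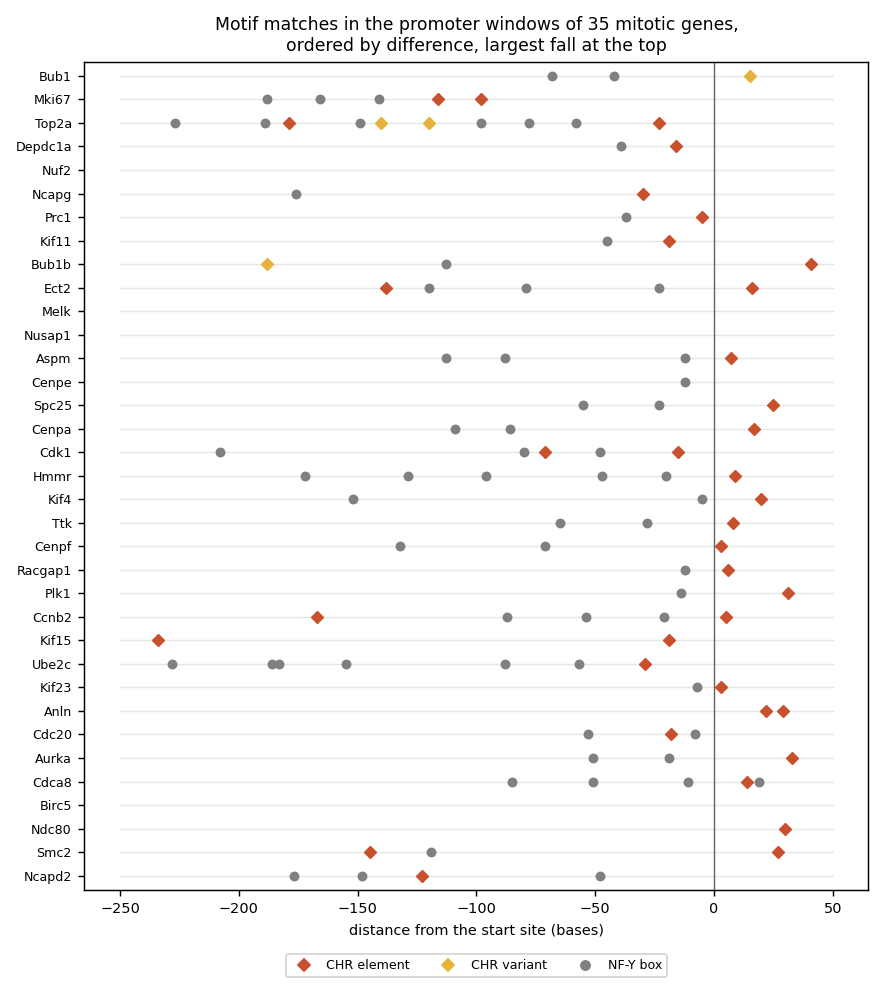
Positions of CHR elements, the CHR variant and NF-Y (CCAAT) boxes on either strand in the 300-base promoter windows of 35 mitotic genes, by distance from the start site in bases, with genes ordered from the largest fall at the top to Ncapd2 at the bottom; for Ect2 and Prc1, with 2 start sites, 1 is drawn. CHR matches lie within 50 bases of the start in 28 of the 30 genes that have one.

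Every one of the 44 mitotic genes lay lower in the mutants. On both mutant arrays each gene was below both control arrays, 44 of 44, where 21.4% of all genes tested showed that order and 22.8% the opposite one. A lower mutant mean was seen in 44 of 44, against 47.6% of all genes. In limma, with p-values adjusted by Benjamini-Hochberg over all 13956 genes and a gene called at an adjusted p under 0.05, 25 of the 44 fell (1.01% of all genes were called lower), 19 did not pass and none rose (0.0143% of all genes were called higher). At an unadjusted p under 0.05, 44 were lower, against 7.69% of all genes. Of the 42 genes whose mean was above the filter level in both groups, 23 fell. The median difference was -0.63 on the log2 scale, a 1.55-fold lower level, beside a median of 0.01 over all genes tested.

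The calls rested on both controls. Without control 1 and without control 2 no member was called in limma (43 and 42 of the 44 had an unadjusted p under 0.05), against 32 without mutant 1 and 38 without mutant 2. The share of all genes called lower moved as well, to 0.0645% without either control, 1.65% without mutant 1 and 5.24% without mutant 2. When all 19938 genes were kept 1 member was called, Depdc1a. The size moved little: the median difference lay between -0.56 and -0.74 with any 1 array left out. All 44 means had to stay lower each time, since both mutant arrays lay below both controls in every gene. The labels do not say whether each array had an embryo of its own or a pool. Xist (11.90 and 5.35 on the control pair, 4.81 and 11.89 on the mutant pair) shows a female and a male sample in each group. The arrays of a group are therefore not technical repeats of 1 sample. With sex as a block, an alternative chosen after the data had been seen, 2 members were called, Bub1 and Top2a.

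The genes stood apart from the spread between arrays of a group. The 2 controls differed by a median of 0.07 over the 44 genes and the 2 mutants by 0.13, whereas the gap between the lower control and the higher mutant had a median of 0.50. That gap ran from 0.11 to 0.91 and exceeded the spread within both groups in 43 genes, Kif11 being the exception. The share of all genes tested that do so was not counted. Root mean square distances between a control and a mutant array were 0.60 to 0.76 over the 44 genes and 0.18 to 0.23 over all genes tested. Between the 2 controls the distance was 0.15 over either set, and between the 2 mutants 0.16 over the 44 genes and 0.19 over all. The mutants were not alike, since mutant 1 was the lower of the pair in 35 genes and mutant 2 in 9; the median distance from the control mean was -0.74 for mutant 1 and -0.56 for mutant 2.

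**Figure D2:**
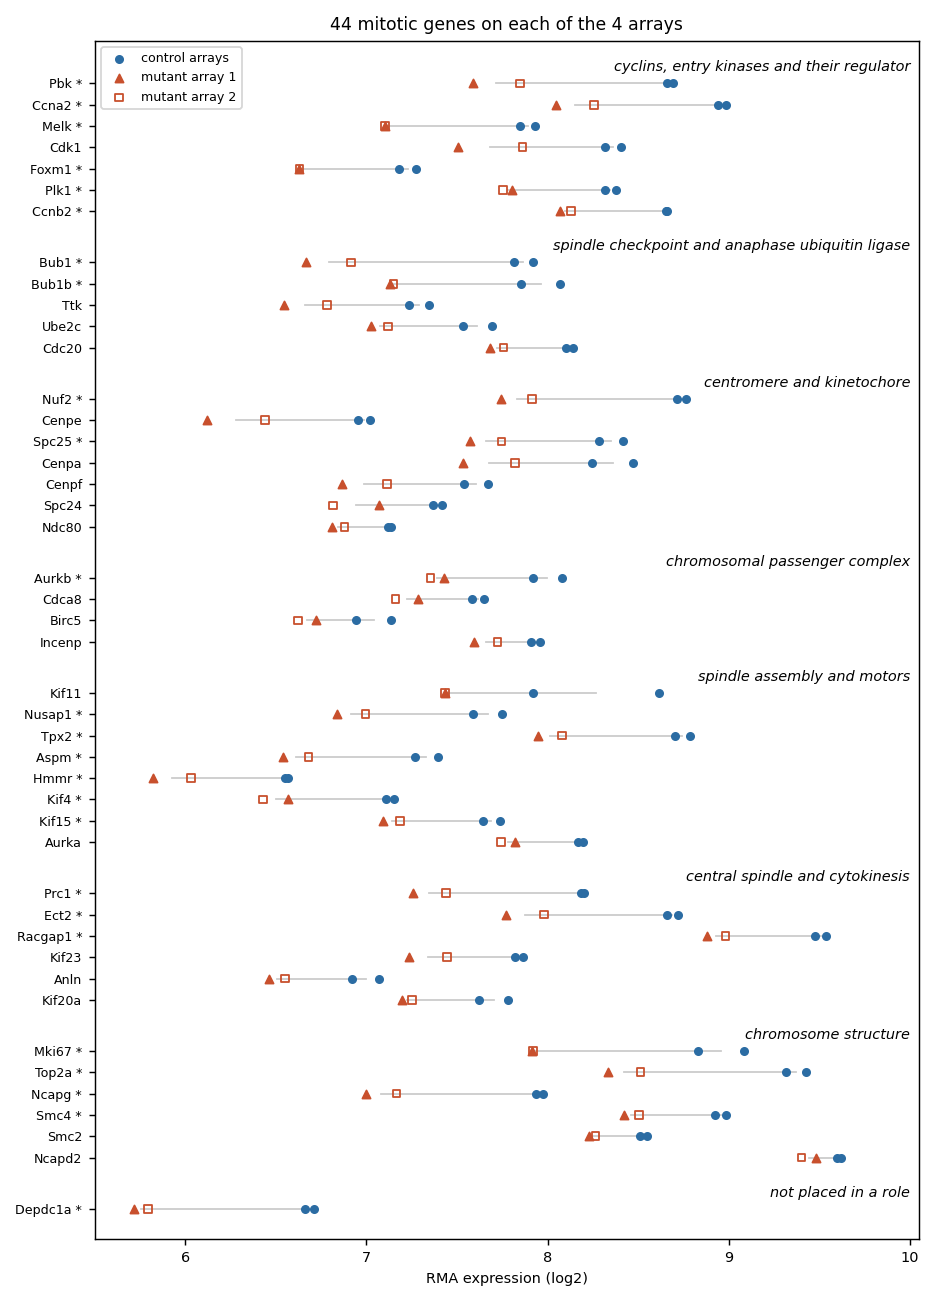
RMA expression (log2) of 44 mitotic genes on each array, grouped by role; circles are the 2 control arrays, the triangle mutant 1, the open square mutant 2, the grey bar joins the group means, and an asterisk marks an adjusted p under 0.05 in limma. In each gene both mutant arrays lie left of both controls.

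Of the genes that start mitosis, 6 of 7 fell, with a median difference of -0.68. Beside this and each later count by role stands the 1.01% of all genes called lower. Ccna2, the cyclin of S phase and mitotic entry, was at 8.98 and 8.94 in controls and 8.04 and 8.26 in mutants, a 1.76-fold fall (difference -0.81 ± 0.09 SE, adjusted p = 0.0278). Ccnb2, a B-type cyclin, was at 8.65 and 8.66 against 8.07 and 8.13 (1.47-fold, adjusted p = 0.0273). The groups did not overlap for either cyclin, and the mutant arrays were 0.21 apart for Ccna2 and 0.06 for Ccnb2. Cdk1, their catalytic partner, was at 8.41 and 8.31 in controls and 7.50 and 7.86 in mutants. It differed by -0.68 ± 0.12 (SE) and did not pass (adjusted p = 0.103), its mutant arrays being 0.36 apart.

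A further 3 kinases and a transcription factor of the same step fell with them. Plk1, the polo kinase of mitotic entry and spindle poles, fell 1.48-fold (8.38 and 8.31 against 7.81 and 7.75, adjusted p = 0.0278). Foxm1, the forkhead factor that drives late cell cycle genes, went from 7.18 and 7.27 to 6.63 and 6.63 (1.51-fold, adjusted p = 0.0273). For Foxm1 the mutant arrays were nearly equal. Melk, a kinase known from neural progenitors, fell 1.73-fold (7.85 and 7.93 against 7.10 and 7.10, adjusted p = 0.0185), and Pbk, a mitotic MAPKK-like kinase, 1.94-fold (8.66 and 8.69 against 7.59 and 7.85, adjusted p = 0.0273).

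In the spindle checkpoint and its target, 2 of 5 genes fell (median difference -0.63). Bub1, the checkpoint kinase at the kinetochore, had the largest difference of the 44: it was at 7.92 and 7.81 in controls and 6.67 and 6.92 in mutants, 2.10-fold lower (adjusted p = 0.0251). Bub1b, which encodes the checkpoint inhibitor BUBR1, fell 1.77-fold (8.07 and 7.85 against 7.13 and 7.15, adjusted p = 0.0278). The 3 others lay lower on both mutant arrays without passing. Ttk, the MPS1 kinase that starts checkpoint signalling, differed by -0.63 (adjusted p = 0.0666), Cdc20, the activator of the anaphase-promoting complex, by -0.40 (adjusted p = 0.0615) and Ube2c, the ubiquitin-conjugating enzyme of that complex, by -0.54 (adjusted p = 0.0577).

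At the centromere and kinetochore 2 of 7 genes fell, both of them subunits of the NDC80 complex, the coupler that holds microtubules; the median difference was -0.68. Nuf2 was at 8.77 and 8.71 in controls and 7.74 and 7.91 in mutants (1.88-fold, adjusted p = 0.0226), and Spc25 at 8.42 and 8.28 against 7.57 and 7.75 (1.61-fold, adjusted p = 0.0427). Their partners were not called. Spc24 was at 7.42 and 7.37 against 7.07 and 6.81 (difference -0.45, adjusted p = 0.148), and Ndc80 at 7.13 and 7.12 against 6.81 and 6.88 (difference -0.28, adjusted p = 0.130). The 95% interval of the difference from limma was -1.11 to -0.72 for Nuf2 and -0.43 to -0.14 for Ndc80, which do not overlap, and the intervals of Spc24 (-0.69 to -0.20) and Spc25 (-0.91 to -0.47) do overlap. No test sets the subunits apart, and features of different genes can compress differences unequally.

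Of the other centromere genes, Cenpe, the kinesin that congresses chromosomes, was at 7.02 and 6.95 in controls and 6.12 and 6.44 in mutants (difference -0.70, adjusted p = 0.0761). Cenpa, the histone H3 variant of the centromere, differed by -0.68 (adjusted p = 0.0989) and Cenpf, a large outer kinetochore protein, by -0.61 (adjusted p = 0.0799). Each had no overlap between groups but a mutant pair or control pair further apart than those of Nuf2.

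The chromosomal passenger complex, which corrects attachments and then moves to the midzone, had the smallest median difference of the 7 roles, -0.38, with 1 of 4 genes called. The kinase subunit Aurkb fell 1.52-fold (7.92 and 8.08 against 7.43 and 7.35, adjusted p = 0.0427). Cdca8, the borealin subunit, differed by -0.39 (adjusted p = 0.0934), Birc5, survivin, by -0.37 (adjusted p = 0.173) and Incenp, the scaffold, by -0.28 (adjusted p = 0.198). In 3 of these 4 genes mutant 2 was the lower mutant, the reverse of most of the set.

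Among spindle assembly factors and motors 6 of 8 fell, and the median difference was -0.68. Tpx2, the activator of Aurora A, was at 8.79 and 8.70 in controls and 7.95 and 8.08 in mutants (1.66-fold, adjusted p = 0.0265). Aspm, a spindle pole protein whose loss causes microcephaly, fell 1.65-fold (7.39 and 7.27 against 6.54 and 6.68, adjusted p = 0.0308) and Nusap1, a microtubule bundler, 1.69-fold (adjusted p = 0.0360). The kinesins Kif4 (1.55-fold, adjusted p = 0.0313) and Kif15 (1.46-fold, adjusted p = 0.0415) and the microtubule-binding protein Hmmr (1.55-fold, adjusted p = 0.0488) fell as well. Aurka, the Aurora A kinase itself, was at 8.19 and 8.17 against 7.82 and 7.74 and did not pass (difference -0.40, adjusted p = 0.0615).

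Kif11, the motor that separates the spindle poles, was the least settled value of the set. It was at 8.61 and 7.92 in controls and 7.43 on each mutant array. The mutants agreed closely and lay below both controls, but the controls were 0.69 apart. The difference was -0.83 ± 0.22 (SE, adjusted p = 0.215), -0.48 without control 1 and -1.18 without control 2.

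In the central spindle and cytokinesis group 3 of 6 genes fell (median difference -0.54). Prc1, which bundles the midzone microtubules, was at 8.20 and 8.19 in controls and 7.26 and 7.44 in mutants (difference -0.85, adjusted p = 0.0251). Ect2, the exchange factor that activates RhoA at the furrow, went from 8.66 and 8.72 to 7.77 and 7.98 (1.76-fold, adjusted p = 0.0288), and its partner Racgap1, a centralspindlin subunit, from 9.54 and 9.48 to 8.88 and 8.98 (1.49-fold, adjusted p = 0.0331). PRC1 and RACGAP1 sit on the midzone and ECT2 acts from there on the furrow. Kif23, the other centralspindlin subunit, differed by -0.50 (adjusted p = 0.0811), Anln, the scaffold anillin, by -0.49 (adjusted p = 0.0669) and the midzone kinesin Kif20a by -0.48 (adjusted p = 0.0685), none of them past the threshold.

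Of 6 genes of chromosome structure 4 fell, with the widest range of any role, from -1.04 to -0.16. Mki67, the chromosome coat protein Ki-67, was at 9.08 and 8.83 in controls and 7.92 and 7.92 in mutants (2.05-fold, adjusted p = 0.0251). Top2a, topoisomerase II alpha, was at 9.42 and 9.32 against 8.33 and 8.51 (1.93-fold, adjusted p = 0.0227). The other Top2a feature was dim on all arrays, between 3.69 and 4.19, and differed by -0.21. With the mean of both features the difference was -0.58 and the call was lost (adjusted p = 0.0546).

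Of the 4 condensin subunits among the 44 genes, 2 were called. Ncapg, a subunit of condensin I, fell 1.83-fold (7.974 and 7.936 against 6.996 and 7.165, adjusted p = 0.0227), and Smc4, an ATPase shared by condensins I and II, 1.41-fold (8.99 and 8.93 against 8.42 and 8.50, adjusted p = 0.0427). Smc2, the partner of Smc4, differed by -0.28 (8.51 and 8.55 against 8.23 and 8.26, adjusted p = 0.122). Ncapd2, also of condensin I, was at 9.62 and 9.60 against 9.48 and 9.40, the smallest difference of the 44 (-0.16, adjusted p = 0.331). The 95% intervals of Ncapg (-1.07 to -0.68) and Ncapd2 (-0.31 to -0.02) did not overlap. These are the largest and smallest differences of the 4 subunits, compared after they had been seen. No test sets the subunits apart, and features of different genes can compress differences unequally. Of the condensin subunits outside the 44 genes, Ncaph of condensin I differed by -0.60 (adjusted p = 0.0753) and the condensin II subunits Ncapg2, Ncapd3 and Ncaph2 by -0.27, -0.15 and -0.03 (adjusted p = 0.217, 0.382 and 0.859), none of them called.

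**Figure D3:**
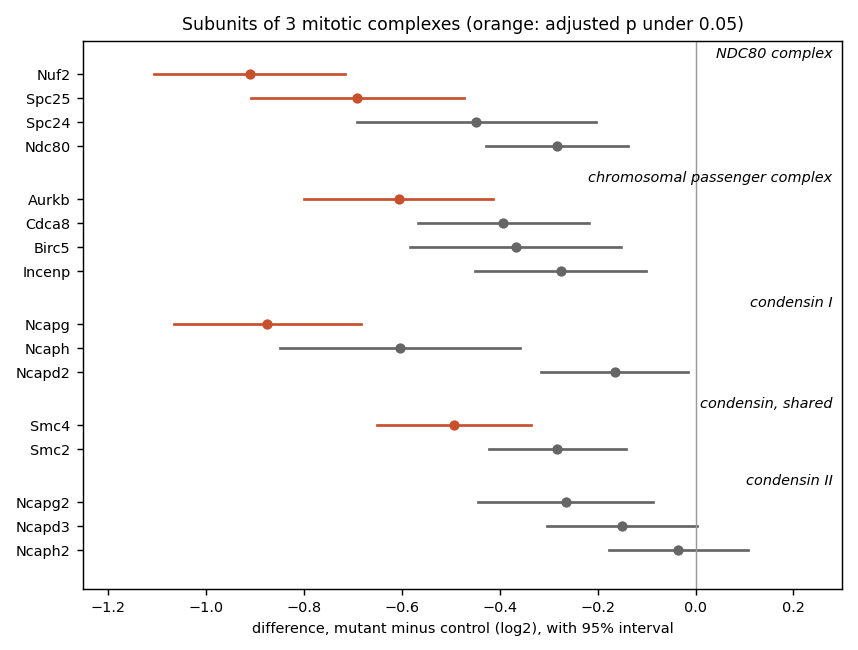
Difference, mutant minus control (log2), with its 95% interval from limma, for the subunits of the NDC80, chromosomal passenger and condensin complexes; orange marks an adjusted p under 0.05. Within NDC80 the differences run from -0.91 (Nuf2) to -0.28 (Ndc80), and within condensin I from -0.87 (Ncapg) to -0.16 (Ncapd2).

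Depdc1a, placed in no role here, had an adjusted p of 0.0135. It was at 6.66 and 6.71 in controls and 5.71 and 5.79 in mutants, 1.91-fold lower, and its other feature differed by -0.88. Its mutant mean (5.75) and that of Hmmr (5.93) lay under the filter level, so both were tested only because the controls were higher.

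Over both mutants, the median differences of 5 roles were close together. Chromosome structure, centromere and kinetochore, mitotic entry, spindle assembly and the checkpoint lay between -0.68 and -0.63, followed by cytokinesis at -0.54 and the passenger complex at -0.38. The order among the first 5 was not the same in the mutants: mitotic entry led in mutant 1 (-0.79) and spindle assembly in mutant 2 (-0.66). Cytokinesis and the passenger complex came last in each mutant, at -0.62 and -0.33 in mutant 1 and at -0.49 and -0.44 in mutant 2, where the checkpoint genes, at -0.51, lay close to cytokinesis. The roles hold 4 to 8 genes each, and no test sets them apart.

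Other mitotic genes were listed by function, where 1.01% of all genes tested were called lower and 0.0143% higher. Of 31 other kinetochore and checkpoint genes tested, 6 fell and none rose (median -0.36), among them Sgo2a, a shugoshin that guards centromeric cohesion (1.56-fold, adjusted p = 0.0254), Knl1, the scaffold that recruits BUB1 (1.54-fold, adjusted p = 0.0264), Cenpi (difference -0.58), Cenpm (-0.44), Ska3 (-0.57) and Kntc1 (-0.41; adjusted p between 0.0384 and 0.0488 for these 4). Cenpi passed the filter through the controls alone, and over the 28 genes above the level in both groups 5 fell, with a median of -0.23. Of 20 other spindle, midzone and cytokinesis genes, 6 fell and none rose (median -0.52). Kif2c, a microtubule-depolymerising kinesin, was at 8.29 and 8.23 in controls and 7.45 and 7.46 in mutants (1.75-fold, adjusted p = 0.0161), and Stil, Tacc3, Cep55, Kif18b and Dlgap5 fell between 1.45-fold and 1.64-fold (adjusted p between 0.0210 and 0.0465). Stil passed the filter through the controls alone.

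Of 13 regulators of mitotic entry outside the 44 genes, 2 fell (1.01% of all genes were called lower) and none rose (median -0.54). The called genes were Cdca2, a phosphatase-targeting subunit on chromosomes (1.52-fold, adjusted p = 0.0308), and Wee1, the kinase that holds CDK1 inactive (8.54 and 8.66 against 7.98 and 8.05, difference -0.58, adjusted p = 0.0376). The CDK1-activating phosphatase Cdc25c differed by -0.67 (adjusted p = 0.0615) and did not pass.

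In the list of separase, securin and cohesin, Pttg1, securin, fell 1.69-fold (7.83 and 7.90 against 7.09 and 7.13, adjusted p = 0.0206) and Esco2, the S phase cohesin acetyltransferase, 1.70-fold (adjusted p = 0.0227), the 2 called of 14 tested; Esco2 passed the filter through the controls alone. Cohesin itself also serves cells that do not divide. Its subunits Stag2 and Rad21 differed by -0.24 (adjusted p = 0.258) and -0.13 (adjusted p = 0.506) and were not called. The list median was -0.11, and 1.01% of all genes were called lower. The anaphase-promoting complex core had a median of -0.02, with none of 16 called in limma and 1 at an unadjusted p under 0.05 (7.69% of all genes, counting those lower). That gene was Fbxo5, the inhibitor EMI1 placed on the list with the core, which differed by -0.53 (adjusted p = 0.0943), and Cdc27, a core subunit, differed by -0.09 (adjusted p = 0.621).

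The regulators thought to read CHR and E2F sites showed no call. Of 19 genes of the MuvB, MYB, E2F and retinoblastoma families tested, none was called in limma and the median was -0.08. At an unadjusted p under 0.05, 6 were lower, against 7.69% of all genes. Both mutant arrays were below both controls in 8 (21.4% of all genes) and above both in 1 (22.8% of all genes). Rbl1, the retinoblastoma relative p107, differed by -0.55 (7.99 and 7.95 against 7.33 and 7.50, adjusted p = 0.0520) and E2f8, a repressor E2F, by -0.43 (adjusted p = 0.0870). Mybl2, B-MYB, differed by -0.21 (adjusted p = 0.362). Foxm1, given above, was the regulator of this system that passed.

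S phase genes mark cycling cells as well. Of 37 tested 1 fell (2.70%, against 1.01% of all genes called lower), Mcm3 of the replicative helicase (2.00-fold, adjusted p = 0.0185). A lower mutant mean was seen in 36 (47.6% of all genes), and 23 were at an unadjusted p under 0.05 (7.69% of all genes, counting those lower). The median difference of the 37 was -0.25, against -0.63 for the 44 mitotic genes and 0.01 for all genes. Over the 39 on the array, 2 of them not tested, the median distance from the control mean was -0.26 in mutant 1 and -0.24 in mutant 2. Mcm4 differed by -0.40 (adjusted p = 0.0536) and Pcna, the polymerase clamp, by -0.29 (10.95 and 10.95 against 10.65 and 10.68, adjusted p = 0.113). Whether the medians of the S phase and mitotic lists differ was not tested.

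**Figure D4:**
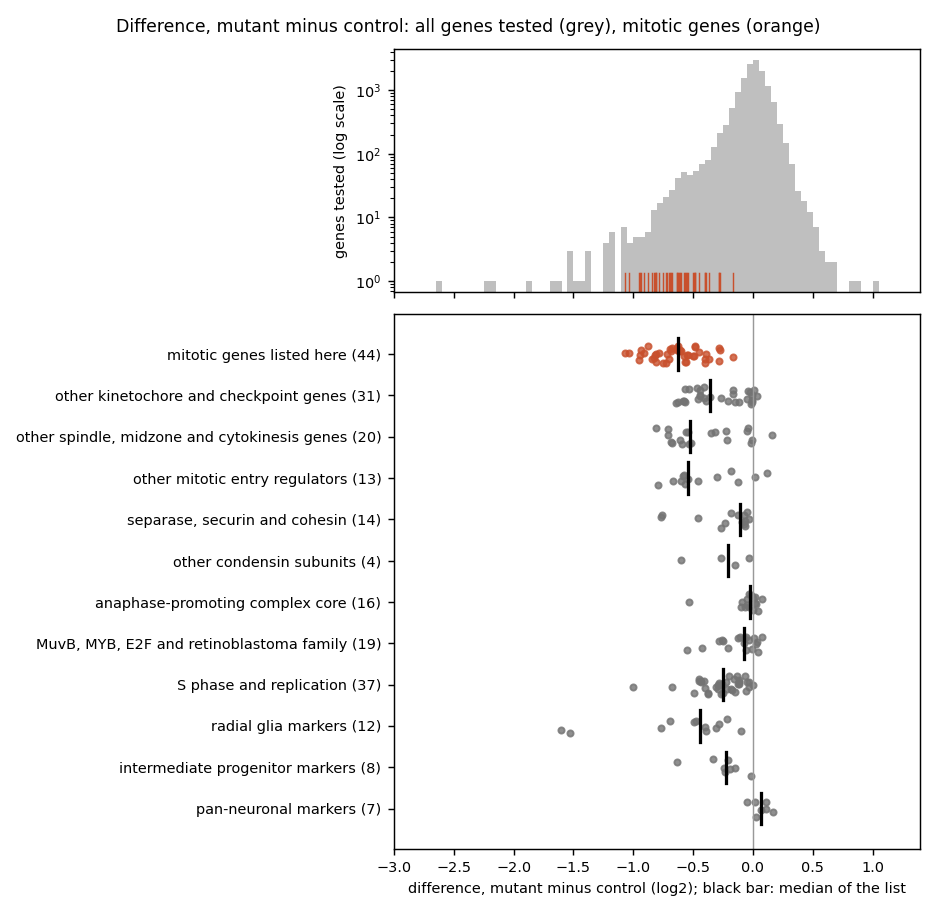
Upper panel: histogram of the difference, mutant minus control (log2), for 13956 genes, with the count on a log axis and the 44 mitotic genes as ticks. Lower panel: each tested gene of the named lists as a point and the median as a bar; the mitotic genes centre on -0.63, S phase genes on -0.25, the anaphase-promoting complex core on -0.02 and pan-neuronal markers on 0.07.

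Some markers of progenitors and glia were lower in the same arrays. Over all genes tested 1.01% were called lower, and 7.69% were lower at an unadjusted p under 0.05. Of 12 radial glia markers 4 fell (Fabp7, Slc1a3, Hopx and Sox9) and 8 did not pass, Pax6, Nes and Vim among them. At an unadjusted p under 0.05, 11 of the 12 were lower. Both mutant arrays lay below both controls in all 12 (21.4% of all genes). The list median was -0.44, and the log2 summed level was 14.18 to 14.19 in controls and 13.31 to 13.50 in mutants. Such a sum adds linear values, so the brightest genes weigh most. Here they were Fabp7 (mean 12.65 in controls and 11.05 in mutants) and Vim (12.08 and 11.77). Of 6 oligodendrocyte precursor markers 3 fell, Pdgfra, Olig1 and Gpr17 (summed level 10.49 to 10.50 against 9.00 to 9.00). Olig2 was at 8.05 and 7.68 in controls and 6.39 and 5.63 in mutants. It differed by -1.85 and did not pass (adjusted p = 0.0567). Sox10 differed by -0.28 (adjusted p = 0.172) and Cspg4 by 0.01. At an unadjusted p under 0.05, 5 of the 6 were lower. Pdgfra, Olig2 and Gpr17 passed the filter through the controls alone. Of 6 astrocyte markers tested 3 fell, Aldoc, Aldh1l1 and Acsbg1. Gja1 (difference -0.78, adjusted p = 0.382) and Slc1a2 (-0.75, adjusted p = 0.352) lay lower on both mutant arrays without passing. Gfap differed by 0.04. At an unadjusted p under 0.05, 4 of these 6 were lower. The summed level of the 7 on the array was 12.44 to 12.46 against 11.02 to 11.39. Of 6 microglia markers tested 1 fell, Fcrls, which passed the filter through the controls alone (median -0.26, summed level of the 8 on the array 10.16 to 10.18 against 9.90 to 9.95). At an unadjusted p under 0.05, 4 of these 6 were lower, Fcrls among them. None of 8 intermediate progenitor markers tested was called in limma (4 at an unadjusted p under 0.05, median -0.22), Insm1 and Mfng having the smallest p. Both mutant arrays were below both controls in 7 of the 8 (21.4% of all genes). Eomes differed by -0.21 (adjusted p = 0.373), Sstr2 by -0.33 (adjusted p = 0.383) and Neurog2 by -0.01. Neurod4 differed by -0.64 (adjusted p = 0.334) and passed the filter through the controls alone. The summed level of the intermediate progenitor markers was 11.66 to 11.68 against 11.34 to 11.57. That sum is over 9 genes on the array with the untested Neurog1 (difference 0.37). The summed level of the 44 mitotic genes was 13.64 to 13.70 in controls and 12.99 to 13.08 in mutants. RMA values have no 0, so no defining marker is listed at 0. In whole tissue fewer cycling cells and less of these RNAs per cell cannot be told apart, and the part of each marker group in the fall of mitotic genes was not tested.

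Markers of the labelled tissue were present. Of 6 dorsal cortex genes tested none was called in limma (2 at an unadjusted p under 0.05), with a median of 0.04. Neurod6 and Tbr1, genes of cortical projection neurons, were between 10.97 and 12.11 on all arrays. Emx2, a gene of cortical progenitors, was at 7.80 and 7.86 in controls and 6.70 and 7.56 in mutants (adjusted p = 0.363), Neurod2 differed by 0.20 (adjusted p = 0.370) and Lhx2 by -0.13 (adjusted p = 0.458). The 7 pan-neuronal genes had a median difference of 0.07 with none called in limma and none at an unadjusted p under 0.05. Ganglionic eminence and interneuron genes had a median of -0.06 and endothelial and pericyte genes of -0.04, none called in limma and none at an unadjusted p under 0.05. Ttr, a choroid plexus gene, varied from array to array (6.67 and 9.15 in controls, 6.50 and 7.17 in mutants). Map2k1 was at 8.76 and 8.84 in controls and 8.50 and 8.73 in mutants (adjusted p = 0.469) and Map2k2 at 8.57 and 8.47 against 8.57 and 8.64 (adjusted p = 0.657); their features may lie outside the deleted parts, so they do not check the genotype.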

How the data were processed

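RNA of 2 control and 2 mutant samples was measured on 1 array each. The deposited table holds log2 values that the authors made with RMA, per the submitters' processing notes; the version and build were not given in the sources used here. That the base is 2 follows from the values' range. Quantile normalization hides a shift common to most transcripts, and dim genes are compressed towards 0. The table gives no signal over background; precision is limited by having 4 arrays.

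Of 35557 features, 21789 carried a single platform symbol, updated by Entrez identifier through RefSeq (GRCm38.p6). The brightest feature was kept for each of 19938 genes, and genes under the 30th percentile of the mean (log2 6.16) were left out. The comparison used limma 3.58.1 under R 4.3.3 (eBayes without a trend, 2 residual and 3.31 prior degrees of freedom), with Benjamini-Hochberg adjustment over 13956 genes. Errors beside differences are moderated SE, and intervals are at 95%. P-values measure the spread between these samples. The fit was tested on simulated data. The 45 genes, their roles and the other lists were chosen with earlier results of these data known, and all members are named. Of each other list of mitotic or replication genes the called genes (at most 6, by smallest p) or else the 2 with the smallest p are named; of the marker lists, the called genes and defining markers. Ncapd3, Ncaph2, Stag2, Rad21, Mybl2, Cdc25c, Mcm4, Pcna, Emx2, Neurod2, Lhx2, Insm1, Mfng, Cspg4, Gfap, Neurog1 and Neurog2 were added after their values were seen. So were Olig2, Sox10, Gja1, Slc1a2, Eomes, Neurod4 and Sstr2. Promoter windows came from RefSeq and were searched on both strands. Alternatives were the filter, the summary of features, 2 scalings, a trend, blocks and leaving out each array.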

Additional observations from a re-analysis of the deposited data

How the results depend on the processing

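All tested members were lower in each of the 12 alternative fits, and the median difference lay between -0.56 and -0.74. For most of these fits the direction was fixed in advance. Filters, a trend and blocks do not change a gene's difference, and leaving out 1 array cannot reverse groups that do not overlap. The number called did not hold. The number of members called lower, 25 of 44 in the fit reported, was 1 of 44 with no filter on dim genes, which tests 19938 genes, and 0 to 38 of 44 on leaving out 1 array. The calls on the other mitotic and replication lists, 17 in the fit reported, became 0 with no filter (80 at an unadjusted p under 0.05), 27 with an intensity trend, and 0 to 55 on leaving out 1 array. Leaving out a control leaves the spread to the mutant pair alone, and the lone control is assumed to vary like the mutants. With the filter at the 50th percentile 19 of the 26 members tested were called, and with the mean of features, median centring, quantile normalization or a trend between 23 and 27 of 44. Median centring moved the median of all genes from 0.01 to 0.04.

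The titles number the arrays of both groups 1 and 2, but nothing says that a number pairs them. Deviations of same-numbered arrays correlated at -0.16 over 13956 genes, which are not independent. With the replicate block 17 members and 13 genes of the other lists were called. The crossed pairing, chosen after seeing the data and the same as pairing by sex, gave 2 and 0 (74 of the latter at an unadjusted p under 0.05). Each block leaves 1 residual degree of freedom. RMA values carry no detection limit, so falls of dim genes may be understated.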
